A study of Cavia porcellus with 24 samples.

Results

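The high fat diet was compared with the control diet in F1 guinea pigs whose F0 dams had been food restricted, that is, PR-H (animals 16, 23 and 31) against PR-C (animals 17, 25 and 36). These 6 animals were chosen by group name from the 24 of the series, and 13224 of the 18149 genes listed were tested, namely those averaging 10 normalized counts or more. The F0 dams of both groups received 70% of the ad libitum ration until about mid gestation and a milder restriction after that, so the restriction is shared by PR-H and PR-C. The offspring were moved at 8 weeks of age to chow with added cholesterol, pork fat and fructose (PR-H) or stayed on control chow (PR-C), and were sampled at 20 weeks, after 12 weeks of diet, when RNA was flushed from the carotid endothelium for sequencing. The matching F1 arm from dams on the full ration, PC-H and PC-C, had 3 animals each.

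The labels give no litter, so siblings may be present among the 6 animals. According to the paper, diets were assigned so as to keep siblings off the same diet, so siblings may sit across PR-H and PR-C. Litter could not be included in the tests. The study's animal list gives PR-C animal 17 as female and the other 5 as male. In the series, 3 unnamed genes were higher in every female than in every male. Animal 17 was among the females by which these genes were picked, so they are not a separate check of its sex. A value is a normalized count, meaning the reads counted on a gene divided by 1 size factor per library. Genes carry guinea pig Ensembl identifiers, and symbols were available for 147 of them through the readable part of the study's list for PC-C vs PC-H; the other genes are given by identifier. Of 12 endothelial markers listed only Tm4sf18 had a symbol (119 to 312 normalized counts in the 6 animals), so the endothelial origin of the RNA could not be checked on its defining markers here.

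Cholesterol that enters a cell in excess is partly converted to oxysterols, which bind the nuclear receptors LXRalpha and LXRbeta. Liver X receptors (LXRs) then turn on genes that export cholesterol, limit its uptake and make fatty acids with which it can be esterified. Endothelial cells line the artery and meet circulating lipoproteins directly, and this sterol response is one of the best known transcriptional effects of cholesterol loading in vascular cells.

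The 6 PR libraries held 23489417 to 28823878 counted reads, within the 14061522 to 31148123 of the 24 libraries, and the 10 most abundant genes took 7.30% to 8.38% of their reads. Across genes, Pearson's r between log2 normalized counts was 0.943 to 0.968 for the 6 pairs of animals in the same group and 0.943 to 0.966 for the 9 pairs on different diets, ranges that overlap almost fully. PR-C animal 36 had the lowest values, at 0.943 to 0.950 with the other 5. The median SD between animals, on the log2 scale, was 0.21 in PR-H and 0.28 in PR-C, against 0.38 in PC-H and 0.25 in PC-C.

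In the PR arm the 2 diets differed in a small set of genes, led by sterol response genes. With limma, 3 of 13224 genes (0.0227%) passed an adjusted p of 0.05, all higher in PR-H: Mylip, Abcg1 and Srebf1. With the DESeq2 Wald test, the study's method, 15 of the 15285 genes given an adjusted p passed (0.0981%), 11 higher and 4 lower in PR-H, and these included the same 3. The edgeR quasi-likelihood test passed 1 gene, Mylip.

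Over all genes the shift was near 0. The median log2 fold change was -0.00, and 6490 genes (49.1%) were higher in PR-H. An unadjusted limma p under 0.05 was found for 428 genes (3.24%), 222 higher and 206 lower, fewer than the 5% that this threshold alone allows. The 3 animals of PR-H did not overlap with those of PR-C in 1240 genes (9.38%). A log2 fold change above 1 was seen in 291 genes and below -1 in 412, of which 82 and 144 separated the groups. A single gene with 3 animals a group cannot go below p = 0.1 in a two-sided exact permutation test, so the calls rest on the variance that each model shares across genes.

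**Figure D1:**
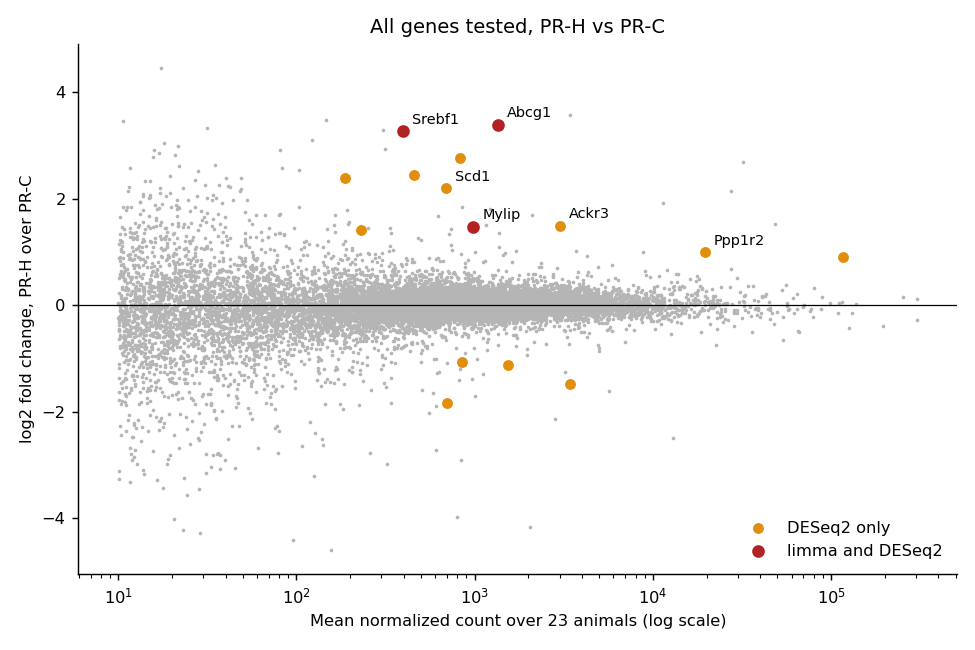
Log2 fold change of PR-H over PR-C from limma (y axis) against the mean normalized count over 23 animals (x axis, log scale), 1 point per gene tested. The 3 genes called with limma and DESeq2 are red and the 12 called with DESeq2 only are orange, and low genes spread most widely without being called. The size of the change alone does not set the called genes apart: ENSCPOG00000030316 was called at 0.91, and ENSCPOG00000006137 at 3.58 was not.

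The largest called increases were in cholesterol export and in the control of fatty acid synthesis. Abcg1 (ENSCPOG00000015194), the transporter that moves cholesterol out of cells to high density lipoprotein, had 3268, 2714 and 2869.6 normalized counts in PR-H animals 16, 23 and 31 and 658, 87.3 and 375 in PR-C animals 17, 25 and 36. The lowest PR-H animal was far above the highest PR-C animal, and most of the spread lay among the PR-C animals. Abcg1 rose 10.5-fold, or 3.40 on the log2 scale (standard error 0.56, 95% interval 2.22 to 4.57), with adjusted p = 0.0296 in limma and 0.00111 in DESeq2. The size depended on the PR-C animals: without animal 17 the limma log2 fold change was 4.01 and without animal 25 it was 2.56, and DESeq2 with all animals gave 2.98.

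Srebf1 (ENSCPOG00000002439) encodes SREBP-1, the transcription factor that drives fatty acid synthesis genes. It had 724, 1033 and 834 normalized counts in PR-H and 86.5, 78.3 and 98.8 in PR-C. The PR-C animals lay close together and well apart from PR-H. Its log2 fold change was 3.27 (standard error 0.54, 95% interval 2.14 to 4.41; adjusted p = 0.0296 with limma and 2.15e-06 with DESeq2).

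Mylip (ENSCPOG00000002917) encodes a ubiquitin ligase, also called IDOL, that marks the LDL receptor for degradation. It had 1371, 1336 and 1674 normalized counts in PR-H and 632, 386 and 576 in PR-C, with no overlap. The change was smaller than that of Abcg1 but more even between animals, with a log2 fold change of 1.48 (standard error 0.22, 95% interval 1.02 to 1.94), the lowest adjusted p in both tests (limma 0.0187, DESeq2 7.88e-07) and the single edgeR call (adjusted p = 0.0214).

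Scd1 (ENSCPOG00000032751), the desaturase that makes monounsaturated fatty acids, had 1308, 1324 and 1362 normalized counts in PR-H and 358, 368 and 181 in PR-C. The PR-H animals were nearly equal to each other. Scd1 rose with DESeq2 (adjusted p = 0.00113), and the limma log2 fold change of 2.20 (standard error 0.41) missed the threshold (adjusted p = 0.108).

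These 4 genes are the members with a symbol among 14 LXR targets listed, and all 4 were higher in PR-H in each of the 3 animals than in any PR-C animal. Groups did not overlap, in either direction, in 9.38% of all genes tested and in 16.3% of those with a symbol. Their median log2 fold change was 2.74, against -0.00 over all genes tested. The symbols come from a list made on the PC animals, which share no animal with the PR groups, so the other 10 targets are not described here. Of 12 fatty acid synthesis genes, 3 had a symbol: Srebf1, Scd1 and Prkag2, a regulatory subunit of the energy sensor AMPK, which had a log2 fold change of -0.06. Of 19 genes of cholesterol synthesis and uptake only Mylip had a symbol, so this list repeats its value of 1.48.

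**Figure D2:**
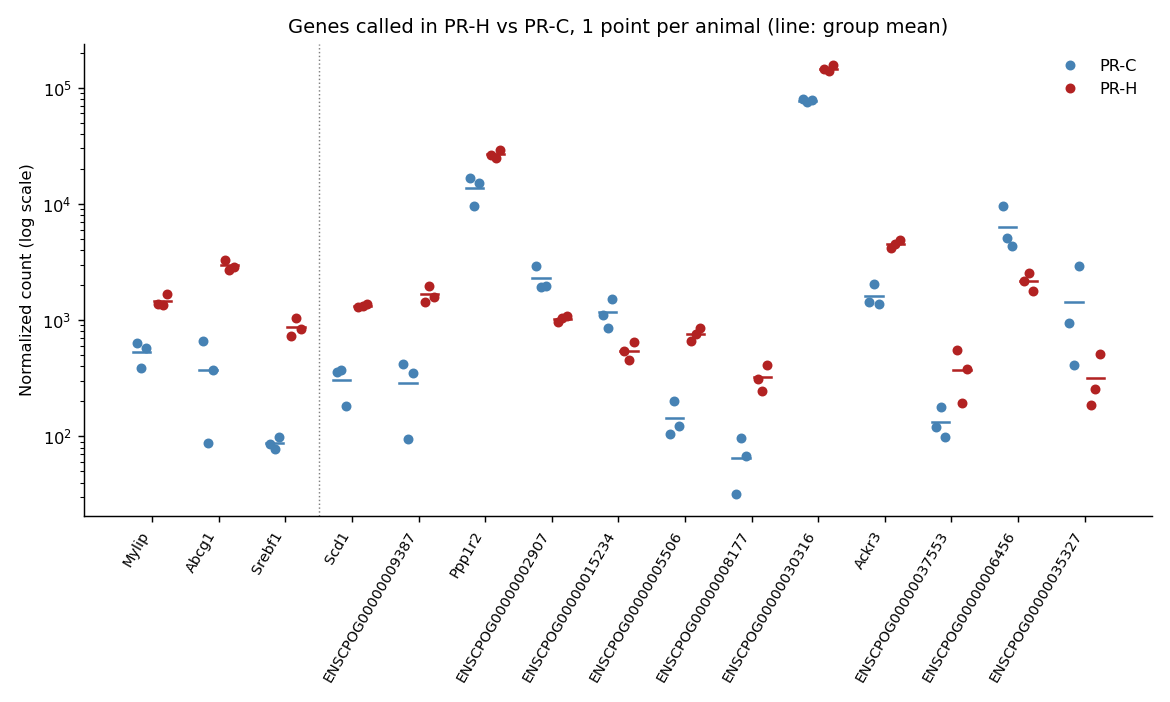
Normalized counts (y axis, log scale) of the 15 called genes in the 3 PR-C (blue) and 3 PR-H (red) animals, 1 point per animal, with a line at each group mean; genes left of the dotted line were called with limma too. In 14 of the 15 genes the groups do not overlap, against 9.38% of all genes tested, and the exception is ENSCPOG00000035327. The 15 genes were picked by this contrast in the same animals, so their separation is largely built in and is not separate support.

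The other 11 genes passed with DESeq2 but not limma, and of these only Ppp1r2 and Ackr3 had a symbol. Ppp1r2 (ENSCPOG00000040784), an inhibitor of the catalytic subunit of protein phosphatase PP1, had 26390.2, 24778 and 29283 normalized counts in PR-H and 16814, 9550.4 and 15060.1 in PR-C. It rose 1.99-fold, which is 0.99 on the log2 scale (adjusted p = 0.00563 with DESeq2, 0.175 with limma). The groups did not overlap, and animal 25 was the lowest of the 6.

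Ackr3 (ENSCPOG00000014142), an atypical chemokine receptor that takes up chemokine without G protein signalling and is found on vascular endothelium, had 4163, 4484 and 4894 normalized counts in PR-H and 1435, 2051 and 1374 in PR-C. Its log2 fold change was 1.50 (standard error 0.35; adjusted p = 0.0356 with DESeq2, 0.349 with limma). Every PR-H animal was above every PR-C animal. Once sex was added to the model (animal 17 being the female), Ackr3 was not called with DESeq2 (adjusted p = 0.0667).

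Among the called genes without a symbol, ENSCPOG00000009387 had the largest increase, with 1439, 1964 and 1575 normalized counts in PR-H and 421, 95.4 and 349 in PR-C (log2 fold change 2.76; adjusted p = 0.00157 with DESeq2, 0.134 with limma). Its PR-C animals were ordered as those of Abcg1 were, with animal 25 lowest and animal 17 highest, and without animal 25 the limma log2 fold change was 2.10. ENSCPOG00000005506 had 656, 752 and 860.1 in PR-H and 105, 202 and 122 in PR-C (log2 fold change 2.44; adjusted p = 0.00555 with DESeq2, 0.211 with limma). ENSCPOG00000008177 had 313, 244 and 413 against 31.6, 97.2 and 67.5 (log2 fold change 2.39; adjusted p = 0.0106 with DESeq2, 0.223 with limma). In both of these genes the lowest PR-H animal was above the highest PR-C animal.

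ENSCPOG00000030316 was by far the most abundant called gene, with 144776, 137942 and 155144 normalized counts in PR-H and 79675, 75189.8 and 77455 in PR-C. It rose by a log2 fold change of 0.91 (adjusted p = 0.00545 with DESeq2, 0.26 with limma), with little spread in either group. ENSCPOG00000037553 had 554, 193 and 378 in PR-H and 119, 180.0 and 97.8 in PR-C (log2 fold change 1.42; adjusted p = 0.0171 with DESeq2, 0.349 with limma), and its groups were separated only by the gap between animals 23 and 25.

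The 4 genes that fell with DESeq2 have no symbol. ENSCPOG00000002907 had 958, 1038 and 1094 normalized counts in PR-H and 2946, 1911 and 1979 in PR-C (log2 fold change -1.12; adjusted p = 0.00597 with DESeq2, 0.211 with limma). ENSCPOG00000015234 had 539, 449.9 and 652 against 1108, 862 and 1522 (log2 fold change -1.07; adjusted p = 0.00638 with DESeq2, 0.211 with limma). Both were lower in each PR-H animal than in any PR-C animal. ENSCPOG00000006456 had 2148, 2554 and 1772 against 9564, 5071 and 4332 (log2 fold change -1.48; adjusted p = 0.0236 with DESeq2, 0.449 with limma), also without overlap. ENSCPOG00000035327 had 185, 256 and 514 against 943, 409 and 2911 (log2 fold change -1.84; adjusted p = 0.0367 with DESeq2, 0.798 with limma), and there animal 31 of PR-H lay above animal 25 of PR-C. Without animal 25 the limma log2 fold change of ENSCPOG00000035327 was -2.51, and without animal 36 it was -1.10.

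The calls differed in how far they rested on 1 animal. In 6 repeats of the DESeq2 test, each without 1 of the PR animals, Mylip, Abcg1, Srebf1 and ENSCPOG00000009387 passed every time, and Scd1 passed in all but the repeat without animal 36. Ackr3 passed in 1 repeat, that without animal 25, and Ppp1r2 in 3. Of the 15 genes, 6 passed without animal 16, 8 without animal 17, 12 without animal 23, 14 without animal 25, 8 without animal 31 and 7 without animal 36. With limma, Mylip and Abcg1 passed without animal 17, and 0 genes passed without any other 1 of the 6.

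Among genes that averaged 50 or more over the 6 animals, 72 had an unadjusted limma p under 0.01 and no overlap, 43 higher and 29 lower. The 6 highest of these were 5 genes given above and ENSCPOG00000006137, with 3471, 3254 and 8677 normalized counts in PR-H and 88.4, 2607 and 247 in PR-C. Its log2 fold change of 3.58 was above that of Abcg1, yet it passed neither test (adjusted p = 0.604 with limma, 1 with DESeq2), and animal 25 of PR-C was close to PR-H. It was called without animal 25 with DESeq2 (adjusted p = 3.19e-06) and with array weights in limma (adjusted p = 0.0198). The lowest was ENSCPOG00000005427, with 2.58, 4.10 and 48.5 in PR-H and 136, 189 and 338 in PR-C, a log2 fold change of -4.42 (adjusted p = 0.798 with limma, 0.864 with DESeq2). The other 5 of the 6 lowest were ENSCPOG00000006456, ENSCPOG00000024859, ENSCPOG00000006085, ENSCPOG00000032449 and ENSCPOG00000031593, and their log2 fold changes lay between -1.48 and -1.36. Of these 5 only ENSCPOG00000006456 was called with DESeq2.

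The same diet contrast was then set beside that of the PC arm, to ask whether the F0 ration altered the response to the diet. The PC groups share no animal with the PR groups. One of the PC-H animals, 34, is recorded by the study as having had its diet mixed part of the way through. The difference between the diet responses, PR minus PC, passed an adjusted p of 0.05 in 0 of 13224 genes with limma (0%), and in 0 genes with DESeq2 and edgeR. At an unadjusted p under 0.05 it was 956 genes with limma (7.23%), 1298 with DESeq2 and 992 with edgeR, and the smallest adjusted p with limma was 0.65. DESeq2 gave 283 genes without PC-H animal 21 and 0 to 7 without each other F1 animal in turn, while limma gave 0 without each of the 12.

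The sterol response genes had nearly the same size of change in both arms. The log2 fold change in the PC arm was 1.55 for Mylip, 3.48 for Abcg1, 3.22 for Srebf1 and 2.11 for Scd1. All 4 were also called there with limma (adjusted p = 0.0101, 0.0281, 0.0281 and 0.0458), where 0.121% of genes were called. Their symbols come from the study's list for PC-C vs PC-H, so a call there was favoured in advance. The share over all genes is therefore not a fair background for these 4. The difference PR minus PC was -0.06 for Mylip (95% interval -0.71 to 0.58), -0.08 for Abcg1 (-1.74 to 1.58), 0.05 for Srebf1 (-1.55 to 1.65) and 0.09 for Scd1 (-1.13 to 1.32), on the log2 scale. The interval of Mylip leaves room for a difference of less than 1 log2 unit either way, whereas those of the other 3 are wider. Ppp1r2 and Ackr3 differed by 0.15 (-0.44 to 0.75) and 0.25 (-0.79 to 1.29).

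Of the 15 called genes, 14 had the same direction in the PC arm, as did 48.3% of all genes tested, and 7 were called there with DESeq2, which called 1.19% of genes. The 7 were Mylip, Abcg1, Srebf1, Scd1, Ppp1r2, Ackr3 and ENSCPOG00000006456. The 6 of these with a symbol come from the study's list for the PC arm, so having a symbol and being called there go together. The 15 themselves were picked by the PR-H vs PR-C contrast alone, with or without a symbol. ENSCPOG00000005506 stood apart, since it rose in the PR arm but had a PC log2 fold change of -0.08 (PC-H 93.5, 712 and 235; PC-C 193, 392 and 244). Its difference between arms was 2.52 on the log2 scale (95% interval 0.98 to 4.06, unadjusted p = 0.00277, limma adjusted p = 0.65). ENSCPOG00000008177 differed by 1.99 (unadjusted p = 0.0134) and ENSCPOG00000035327 by -1.65 (unadjusted p = 0.0417) in limma, with the same adjusted p of 0.65, so a difference between arms was not shown for any of the 15. ENSCPOG00000009387 had a PC log2 fold change of 1.19 against 2.76 in PR, and the interval of its difference ran from -0.02 to 3.16.

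**Figure D3:**
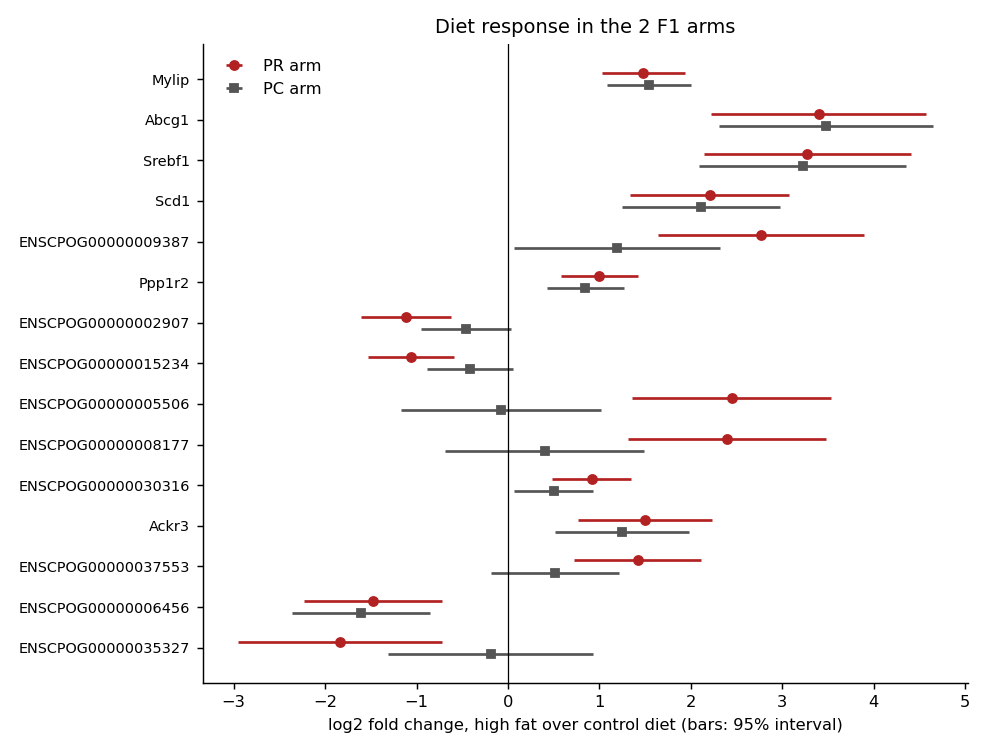
Log2 fold change of high fat over control diet with its 95% interval from limma (x axis) for the 15 called genes (y axis), in the PR arm (red circles) and the PC arm (grey squares). The 2 arms lie on top of each other for Mylip, Abcg1, Srebf1 and Scd1 and are furthest apart for ENSCPOG00000005506, at 2.44 and -0.08.

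The symbols come from genes that the study listed for the PC arm, so their changes there are large by choice and are not evidence of a difference between arms. Of the 141 such genes tested, 73 were higher and 68 lower in PR-H, with a median log2 fold change of 0.01, and 92 (65.2%) had the direction of the PC arm, against 48.3% of all genes tested. In PR-H vs PR-C, 17 of the 141 (12.1%) had an unadjusted limma p under 0.05, against 3.24% of all genes, and 23 (16.3%) did not overlap between groups, against 9.38%. Without the 6 called genes these were 11 of 135 (8.15%) and 17 (12.6%). Of the 94 that were higher in PC-H, 59 were higher in PR-H, and of the 47 that were lower, 33 were lower. The change was smaller in the PR than in the PC arm in 137 of the 141, as the choice of the genes favours. It was also smaller in the PR arm in 8473 of all 13224 genes tested.

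The chaperones, proteins that fold other proteins, were counted as groups. Of 17 cytosolic chaperones listed 7 had a symbol, 5 of them were higher in PR-H, 0 passed with limma or DESeq2, and their median log2 fold change was 0.22. Hspa8 (ENSCPOG00000004169), the constitutive HSP70, had 33787, 35044 and 45577 normalized counts in PR-H and 28046, 20879.6 and 22592 in PR-C, a log2 fold change of 0.68 (limma unadjusted p = 0.0143, adjusted p = 1). Its groups did not overlap. Reads shared with near-identical copies of Hspa8 may have been split, since the counting program is not known. Dnajb1, an HSP40 partner of HSP70, had 3692, 3523 and 4001 against 2702, 3398 and 2573 (log2 fold change 0.38, limma unadjusted p = 0.0274). Cacybp and Hspa14 had log2 fold changes of 0.25 and 0.22.

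In the endoplasmic reticulum list 6 of 18 genes had a symbol, 3 higher and 3 lower, with a median log2 fold change of 0.08. Manf, a secreted stress factor, was at 0.32, Dnajb11, a cochaperone of BiP, at 0.31 and Xbp1, a transcription factor of the unfolded protein response, at 0.17. In the list for mitochondrial folding and import 5 genes had a symbol, and 2 of them were higher, with a median of -0.05. Its members Tmem11 and Prelid1 are mitochondrial proteins but not themselves folding or import factors. Chchd4, which oxidises proteins imported into the intermembrane space, was the largest at 0.49, and Tmem11 was at 0.25, Prelid1 at -0.14 and Timm13 at -0.12. None of these genes passed an adjusted p of 0.05 in limma or DESeq2.

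Of 13 genes of vascular signalling and matrix tested, 7 were higher and 6 lower, with a median log2 fold change of 0.01, and only Ackr3 was called, with DESeq2. Olfml2b (ENSCPOG00000010328), an olfactomedin domain protein of the matrix, had 1518, 2139 and 3474 normalized counts in PR-H and 587, 1755 and 647 in PR-C (log2 fold change 1.36, limma unadjusted p = 0.00569, adjusted p = 1), and animal 25 overlapped with PR-H. Without animal 25 Olfml2b was among the genes DESeq2 called. Scx (ENSCPOG00000022112), a transcription factor of tendon and connective tissue, had 2428, 1437 and 1693 against 765, 1282 and 1110.0 without overlap (log2 fold change 0.81, limma unadjusted p = 0.0186, adjusted p = 1). Snai2, a transcription factor of mesenchymal transition, had a log2 fold change of -0.73.

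Of 11 actin cytoskeleton genes 7 were higher, with a median of 0.06. Frmd4a (ENSCPOG00000001529), a scaffold protein of cell polarity, had 1585, 1425 and 1167 normalized counts in PR-H and 2208, 1743 and 2155 in PR-C, without overlap. Its log2 fold change was -0.55 (limma unadjusted p = 0.00192, adjusted p = 0.748), the lowest p among genes with a symbol that were not called. Rras2 was at 0.43. The 8 microtubule and dynein genes had a median of 0.08, with Dcx at 0.65 and Stmn3 at -0.42, and 4 of them were higher.

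In the 8 interferon response genes 4 were higher, with a median of -0.03, and 0 passed. Siglec1, a receptor of macrophages, was at 4.30, 2.46 and 5.29 normalized counts in PR-H and 0, 1.80 and 0 in PR-C. These values are a few reads each, and Siglec1 reached 156 in animals of other groups. In the mitochondrial genes outside folding 4 of 7 were higher, with a median of 0.08. The other lists, for transcription and chromatin (14 genes, median 0.08), kinase and phosphatase signalling (7, 0.18), ubiquitin conjugation (5, 0.20), glycosylation and lipid anchors (6, -0.10), ribosome assembly, translation and splicing (12, -0.03) and DNA replication and repair (6, 0.18), had no called member other than Ppp1r2 and Mylip.

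**Figure D4:**
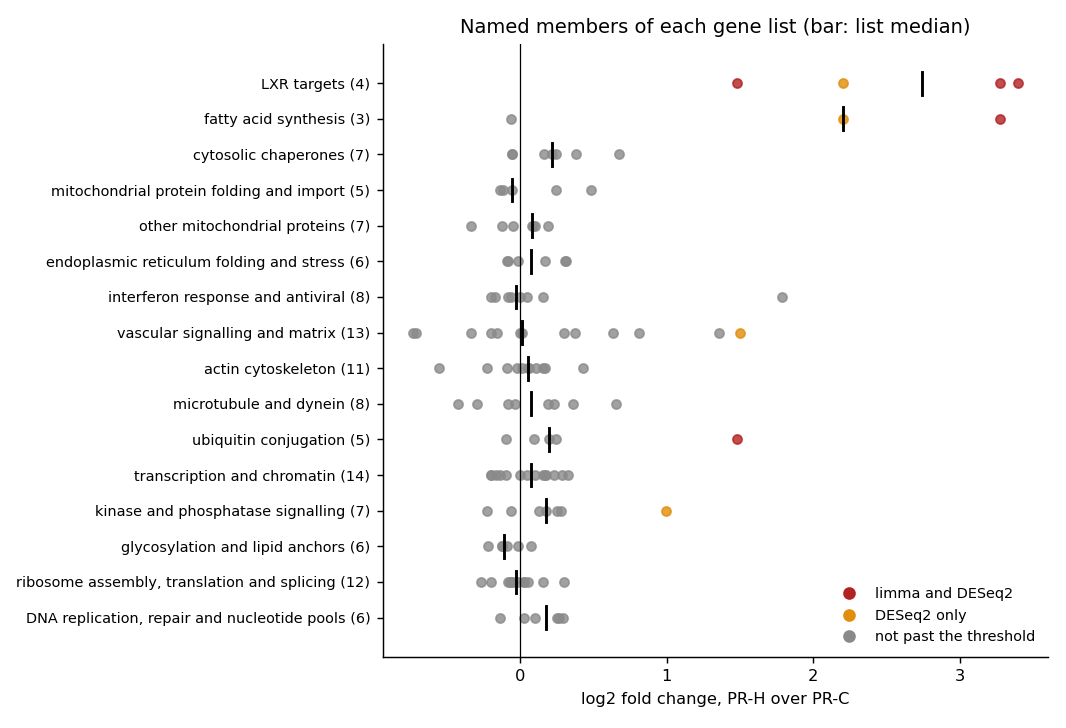
Log2 fold change of PR-H over PR-C from limma (x axis) for the members with a symbol of each gene list (y axis, number tested in brackets), with a bar at the list median. Points are red where limma and DESeq2 called the gene, orange where DESeq2 alone did and grey otherwise. Of the 16 lists plotted, those with at least 3 members tested, the LXR targets alone had every tested member called with DESeq2. DESeq2 called 0.0981% of all genes given an adjusted p. The symbols come from the study's list for the same diet contrast in the PC arm. A response of these members was thus favoured in advance, and their calls do not set the list apart. The medians of the plotted lists other than the LXR targets and fatty acid synthesis lie between -0.10 and 0.22.

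Markers of blood cells were low in the 6 animals. Among 7 B cell markers 3 had a symbol, and their summed level was 18.5 to 37.8 normalized counts in PR-H and 12.6 to 42.8 in PR-C, with Pou2af1 at 0 in animals 31 and 25. Siglec1 was the macrophage marker with a symbol, and the neutrophil marker Cap11 was at 0.859 to 2.46 in PR-H and 0 to 6.51 in PR-C. No smooth muscle, fibroblast, T cell, platelet, erythrocyte or adipocyte marker had a symbol, so those cells could not be looked for. In RNA flushed in bulk from the artery, fewer cells of a type and less RNA per cell cannot be told apart.

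Some genes differed most between animals on the same diet. ENSCPOG00000003894 had 402 normalized counts in PR-H animal 23, 0.882 in animal 31 and 0 in animal 16, and at most 2.79 in PR-C. ENSCPOG00000007045 had 605 in PR-C animal 17, the single female, 11.1 in animal 36 and 0 in the other 4 animals. In the other groups, which hold the other females of the series, ENSCPOG00000007045 was at most 27.6 in any animal fitted. ENSCPOG00000026904 was at 0 in PR-H animal 23 and at 40.5 to 646 in the other 5. Each was thus near 0 in some animals and far higher in others. The other genes of this kind, with the next highest SD in a group, were ENSCPOG00000026863 and ENSCPOG00000002043 among PR-H animals and ENSCPOG00000023418, ENSCPOG00000037062 and ENSCPOG00000000886 among PR-C animals, and the last 3 were at 0 in 1 PR-C animal each.

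The called genes were also followed into the F2 generation, in offspring of PR-C females, on control diet (PR-C-C) or high fat diet (PR-C-H), 3 animals each. These animals share no library with the F1 groups. With limma 345 genes (2.61%) differed between PR-C-H and PR-C-C. Of the 15 genes, 6 were called there in the same direction: Mylip (log2 fold change 1.88), Abcg1 (3.63), Srebf1 (3.60), Scd1 (1.88), Ppp1r2 (0.93) and ENSCPOG00000009387 (3.10), with limma adjusted p from 0.000251 to 0.018. For ENSCPOG00000009387 the F2 animals had 1659.5, 2399 and 1355 normalized counts on the high fat diet and 445, 169.7 and 111 on the control diet.

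Of the 15, 8 had the opposite sign in F2, and of these ENSCPOG00000008177 was called, with a log2 difference of -2.24 (limma adjusted p = 0.0245). It had 36.5, 99.7 and 95.1 normalized counts in PR-C-H and 633, 210.5 and 285 in PR-C-C. Ackr3 had 4007, 2170.4 and 1225 against 6886, 4292 and 4502 (log2 difference -1.21, limma adjusted p = 0.0716). The difference between the F1 and F2 responses was not tested. The control groups of the 2 generations, PR-C-C and PR-C, differed in 302 genes (2.28%) with limma, 5 of the 15 among them. ENSCPOG00000008177 (2.48), ENSCPOG00000005506 (2.04), Ackr3 (1.68) and ENSCPOG00000030316 (0.81) were higher in PR-C-C and ENSCPOG00000002907 (-0.90) was lower, on the log2 scale with limma adjusted p from 0.0148 to 0.0474. Each thus differed between control groups in the direction in which PR-H differed from PR-C. Both contrasts use the same PR-C animals, and the genes were picked by the PR-H vs PR-C contrast. This shared direction is therefore partly built in and is not separate support. None of Mylip, Abcg1, Srebf1, Scd1, Ppp1r2 and ENSCPOG00000009387 was called between the control groups.

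**Figure D5:**
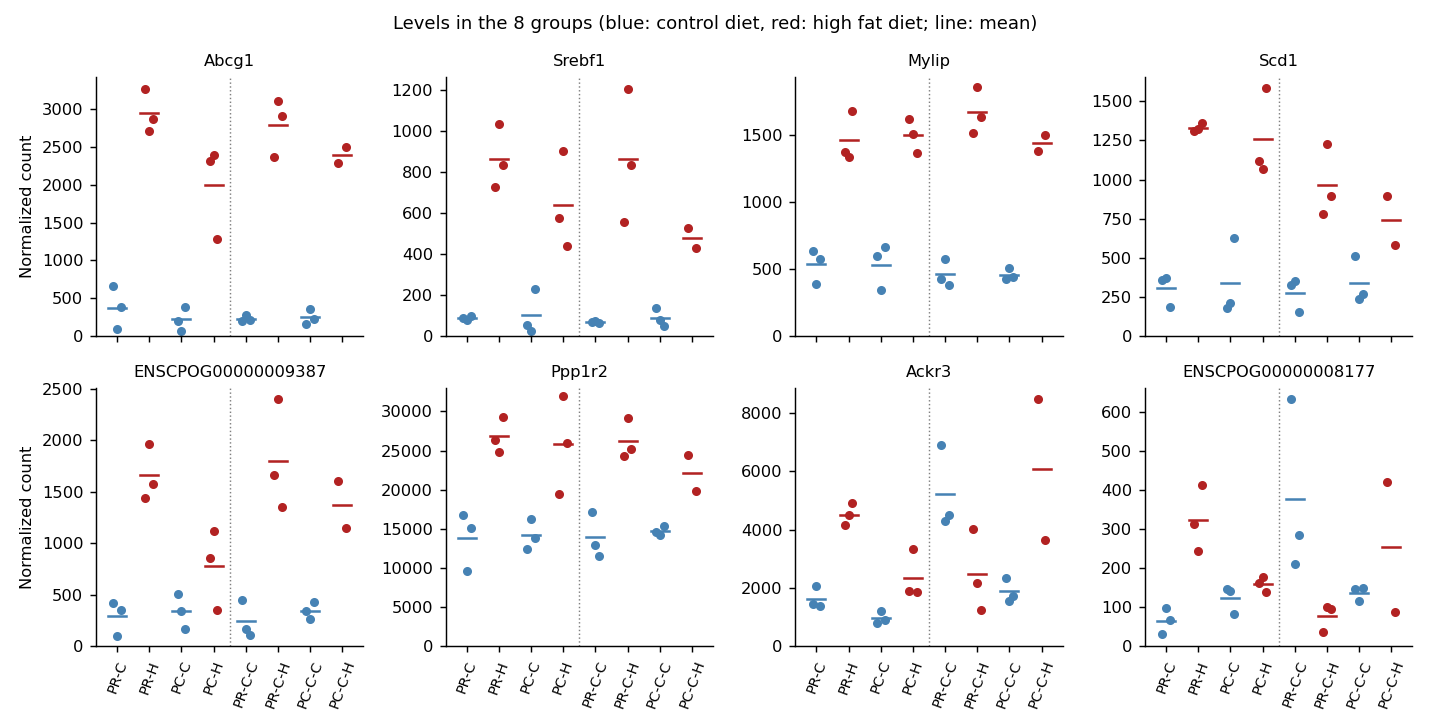
Normalized counts (y axis, linear from 0) of 8 called genes in each animal of the 8 groups (x axis; F1 left and F2 right of the dotted line; PC-C-H without animal 51), control diet in blue and high fat diet in red, with a line at each mean. Abcg1, Srebf1, Mylip, Scd1, Ppp1r2 and ENSCPOG00000009387 have a higher mean on the high fat diet in all 4 pairs of groups. For ENSCPOG00000009387 the animals of PC-H and PC-C overlap. By contrast, Ackr3 and ENSCPOG00000008177 have a higher mean on the control diet in the PR arm of F2.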

How the data were processed

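RNA-seq libraries from flushed carotid endothelium, 1 per animal, were compared between PR-H and PR-C (3 animals each). According to the paper the authors used FastQC, Trimmomatic, STAR and DESeq2; versions, genome build, annotation and the counting program are not given in the sources used here. In the table of signal values deposited by the authors, each library's reads on a gene had been scaled by a single size factor. Scaled back by the smallest value of each library, 100% of the values were whole reads within 0.001 of a read, and recomputed size factors differed by at most 4.9e-15 (relative). The values were fitted with limma 3.58.1 (R 4.3.3) (trend option) after adding a pseudocount of 1 and taking log2, which understates the fold change of low genes. All 8 groups entered 1 model with 23 libraries (PC-C-H animal 51, absent from the study's animal list, left out) and 13224 genes with a mean of at least 10. P-values were adjusted by the Benjamini-Hochberg method over all genes tested, with a threshold of 0.05. DESeq2 1.42.0, the study's test, and the edgeR 4.0.16 quasi-likelihood test were run on the recovered reads. The limma, DESeq2 and edgeR fits of PR-H vs PR-C were tried on simulated counts. These had the same spread between animals set for every gene, unlike the data.

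Between animals of 1 group the chi-square of the reads was 36.6 to 88.5 times its degrees of freedom, far above sampling noise, so each library counted as its own sample and the spread between animals limited the precision more than depth did. The sources used here describe no molecular identifiers, so this covers counting error only.

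Genes were named by rule: those past the threshold with limma or DESeq2; in each list, up to 4 members of largest change and those in the study's text; the 6 highest and 6 lowest changes among genes with a mean of at least 50, unadjusted p under 0.01 and no overlap; and the 4 genes of largest SD in each group. Members and lists were chosen with earlier results of these data known. The gene table available matched 0 identifiers, and symbols were paired through the study's list, whose fold changes and p-values were not used. Alternatives were TMM scaling, pseudocounts of 0.1 and 10, other filters, fewer or more samples, sex as a covariate, array weights, DESeq2, edgeR and each animal left out. DESeq2 with sex, with other sets of samples and with animal 51 was added after the values were seen.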

Additional observations from a re-analysis of the deposited data

How the results depend on the processing

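The same 3 genes were called with limma in PR-H vs PR-C with TMM scaling, pseudocounts of 0.1 or 10, no filter and means of 10 over the 6 animals or 50. There were 15 with DESeq2, 1 with edgeR, 1 when only PR-H and PR-C were fitted (Srebf1), 0 when only the 4 F1 groups were fitted (smallest adjusted p = 0.176 with limma, 312 genes at an unadjusted p under 0.05), 1 with animal 51 (Mylip), 1 with sex as a covariate (Mylip) and 17 with array weights, 12 of which were among the DESeq2 genes. Leaving out 1 of the 6 PR animals at a time gave 0 to 2 genes with limma, and leaving out 1 of the 6 PC animals gave 1 to 4. Over the repeats without 1 PR animal the limma adjusted p ran from 0.013 to 0.19 for Mylip, 0.011 to 0.239 for Abcg1 and 0.103 to 0.19 for Srebf1.

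The DESeq2 count of 15 became 45 when only PR-H and PR-C were fitted, 26 with animal 51, 20 with the 4 F1 groups and 19 with sex, and 7 (without animal 16) to 28 (without animal 25) with 1 animal left out; 13, 8, 13 and 14 of the 15 were among the first 4 of these. The difference between arms stayed at 0 genes with limma under every alternative run, and DESeq2 gave 18 with sex, 7 with the 4 F1 groups, 12 with animal 51 and 0 to 283 with 1 animal left out. The cause of these changes was not tested. Each of the 15 called genes kept its direction in all 285 values computed, and 27 of them lost and 21 gained a call.

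Uncalled genes with a small change turned sign. With 1 animal left out the log2 fold change ran from -0.22 to 0.00504 for Timm13, -0.0065 to 0.24 for Polg, -0.021 to 0.32 for Xbp1, -0.10 to 0.38 for Ifi27, -0.13 to 1.31 for Dcx, -0.012 to 0.49 for Tet2, -0.00701 to 0.32 for Ints1 and -0.35 to 0.013 for Top3a, and array weights gave 0.00878 for Timm13 and 0.042 for Top3a. No paired analysis was possible because the animal numbers are not shared between groups and the litters, by which siblings across diets could be paired, are not given.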

Other observations

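Among genes with a symbol, those with the lowest unadjusted p for the difference between arms were chosen after their values were seen, and all have a limma adjusted p of 0.65. Tshz1, a zinc finger transcription factor, had 2193, 1672 and 1817 normalized counts in PR-H and 2055, 1404 and 1651 in PR-C, a log2 fold change of 0.16, against -0.84 in the PC arm (difference 1.00, unadjusted p = 0.000128). Medag, a gene of fat cell differentiation, had a log2 fold change of -0.44 in the PR arm and 0.82 in the PC arm (difference -1.27, unadjusted p = 0.000573), with 905, 825 and 902 normalized counts in PR-H and 1041, 1331 and 1223 in PR-C. Srgap2, which regulates actin protrusions, was at 0.18 in the PR arm and -0.78 in the PC arm, and Smco4 at 0.10 and 1.02. Fzd7, a Wnt receptor, was at 6.87, 12.3 and 10.6 in PR-H and 3.72, 10.8 and 20.2 in PR-C, a log2 fold change of 0.01 against 4.36 in the PC arm, where PC-C animals were at 0 to 4.82. These symbols come from the list made on the PC arm, which favours a large PC change, and the differences are given as values. With DESeq2 none of the 5 was called as fitted with 23 libraries (adjusted p = 0.0624 for Tshz1, 0.191 for Medag and Fzd7, 0.249 for Srgap2 and 0.302 for Smco4), but some alternatives called them. Tshz1 was called with sex as a covariate (DESeq2 adjusted p = 0.0197) and without each of animals 13, 17, 21 and 31 (0.000879 to 0.0444). Medag was called with sex (DESeq2 adjusted p = 0.0255), with only the 4 F1 groups (0.00518) and without animal 21 (0.0239). Srgap2 was called without animal 17 or 21 (DESeq2 adjusted p = 0.0496 and 0.0183), and Fzd7 without animal 27 (0.0399).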
